A study of Mus musculus with 10 samples.

Results

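The histone genes described here are the protein-coding genes whose GENCODE M21 symbol starts with Hist1h, Hist2h, Hist3h or Hist4h, which are 67 of the 52096 genes in the deposited table. They comprise 6 genes of the linker histone H1, 18 of H2A, 18 of H2B, 12 of H3 and 13 of H4. Their levels were compared between 5 bone marrow libraries of mice labelled Nup214fl/+ (FL), which carry a floxed Nup214 allele and no Cre, and 5 libraries of mice labelled Nup214fl/+,Tie2-cre (HET), which carry the same allele and the Tie2-Cre transgene. Nup214 encodes a nuclear pore protein on the cytoplasmic side, and Tie2-Cre is active in the blood and endothelial lineages. The libraries were made from hematopoietic stem cells sorted as CD48-, CD150+ and LSK (lineage-negative, Sca-1+ and Kit+). No group carried Tie2-Cre without the floxed allele, so effects of the allele's recombination and of Cre itself cannot be told apart. The age of the mice and whether the libraries stem from separate mice are not given in the sources used here, and p-values therefore measure only the spread between libraries, which may be technical.

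Core histones H2A, H2B, H3 and H4 form the protein spool of the nucleosome, and H1 binds the DNA between spools. The clustered genes of these proteins are transcribed mainly in S phase, when new DNA has to be packaged. Most of their mRNAs end in a conserved stem-loop instead of a poly(A) tail, and this stem-loop is bound by the protein SLBP, which directs processing, export and translation of the mRNA. Histone variants such as H2A.Z and H3.3 come from genes outside the clusters, are made through the cell cycle and carry poly(A) tails. The level of clustered histone mRNA measured in a library can therefore depend on the share of cells in S phase, on how the 3′ ends are made and on which ends a protocol captures.

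The genes lie in 4 clusters of GRCm38, the assembly also called mm10. The Hist1 cluster holds 54 of them on chromosome 13 from 21715763 to 23934851, and it holds all 6 H1 genes. Hist2 holds 10 genes on chromosome 3 from 96219865 to 96270132, Hist3 holds 2 on chromosome 11 from 58948920 to 58956830, and Hist4 holds Hist4h4 alone on chromosome 6 from 136801553 to 136804415.

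The stem-loops of 8 members are shown because they carry the difference in sequence that lay beside the largest difference in level. In the annotated transcripts of GENCODE M21, the motif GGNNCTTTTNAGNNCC, searched on the transcript strand only, was found after the stop codon of 44 of the 67 members (65.7%). Among the 58725 protein-coding transcripts of other genes, 52 held it anywhere (0.0885%). Each line gives 12 transcribed bases in lower case and then the stem-loop in capitals, 5′ to 3′, with T for U.
Hist1h2ap, chr13:21833029-21833056, minus strand: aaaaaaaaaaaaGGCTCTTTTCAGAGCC
Hist1h2ao, chr13:21810886-21810913, plus strand: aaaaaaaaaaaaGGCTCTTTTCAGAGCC
Hist1h2ae, chr13:23570668-23570695, minus strand: aaaaaaaacaaaGGCTCTTTTCAGAGCC
Hist1h2ag, chr13:22042483-22042510, minus strand: atcgccaacaaaGGCTCTTTTCAGAGCC
Hist1h2bg, chr13:23571831-23571858, plus strand: tcctaacccaaaGGCTCTTTTCAGAGCC
Hist1h1c, chr13:23739500-23739527, plus strand: aacaatccaaaaGGCTCTTTTCAGAGCC
Hist1h3c, chr13:23745047-23745074, minus strand: tatttaaaaaaaGGCTCTTTTAAGAGCC
Hist1h4d, chr13:23581938-23581965, plus strand: ccaaaaaccaaaGGCCCTTTTCAGGGCC

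The form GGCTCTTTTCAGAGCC was the commonest, in 26 members, of which 10 were H2A, 8 H2B, 5 H3 and 3 H1 genes. No H4 member had that form. In H4 the stem had other pairs, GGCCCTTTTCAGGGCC in 7 members, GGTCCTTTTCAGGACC in 2 and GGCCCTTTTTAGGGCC in 2. The other 23 members had no match in the annotated transcript. For many of them the annotated transcript is only the coding sequence, so a missing match says nothing of the gene itself.

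H2A transcripts dominated the histone signal in every library. FPKM count fragments relative to the length of the transcript and to the library's mapped fragments, so levels of different genes can be set side by side per length. The 18 H2A genes summed to 9797, 9722, 11305, 12896 and 15445 FPKM in FL 1 to 5, and in HET 1 to 5 they summed to 9455, 16167, 12176, 14658 and 10096 FPKM. The H2A genes thus made up 93.8% to 96.4% of the summed FPKM of all 67 members, with a median over libraries of 95.8%. The other classes made up small shares, at 0.325% to 0.985% for H1, 0.999% to 2.68% for H2B, 0.838% to 1.23% for H3 and 0.855% to 1.56% for H4. In the nucleosome the core histones occur in equal numbers, whereas H2A exceeded H2B by a factor of 35.0 to 96.5 in summed FPKM. All members together took 0.986% to 1.64% of a library's summed FPKM.

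A pair of genes held most of that H2A signal. Hist1h2ap and Hist1h2ao have identical coding sequences, as annotated, and together held 68.1% to 77.0% of the members' sum. Hist1h2ap held 6395, 6101, 7037, 7442 and 10174 FPKM in FL 1 to 5, and 6412, 11028, 8375, 9945 and 7063 FPKM in HET 1 to 5. It ranked between 9th and 23rd of all 52096 genes in a library. Hist1h2ao held 1526, 1372, 1803, 1729 and 1984 FPKM in FL 1 to 5, and 1155, 1787, 1195, 1757 and 909 FPKM in HET 1 to 5. How the authors' counting assigned reads shared by near-identical genes was not given in the sources used here. The split between this pair is therefore uncertain. Their sum does not depend on that split, but it would miss any shared reads that were left out. That sum averaged 9113 ± 1835 FPKM in FL and 9925 ± 2291 FPKM in HET (SD, n = 5 each), and the groups overlapped. Without both genes, the remaining 16 H2A genes still exceeded the 18 H2B genes by a factor of 6.99 to 20.5 in each library.

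**Figure D1:**
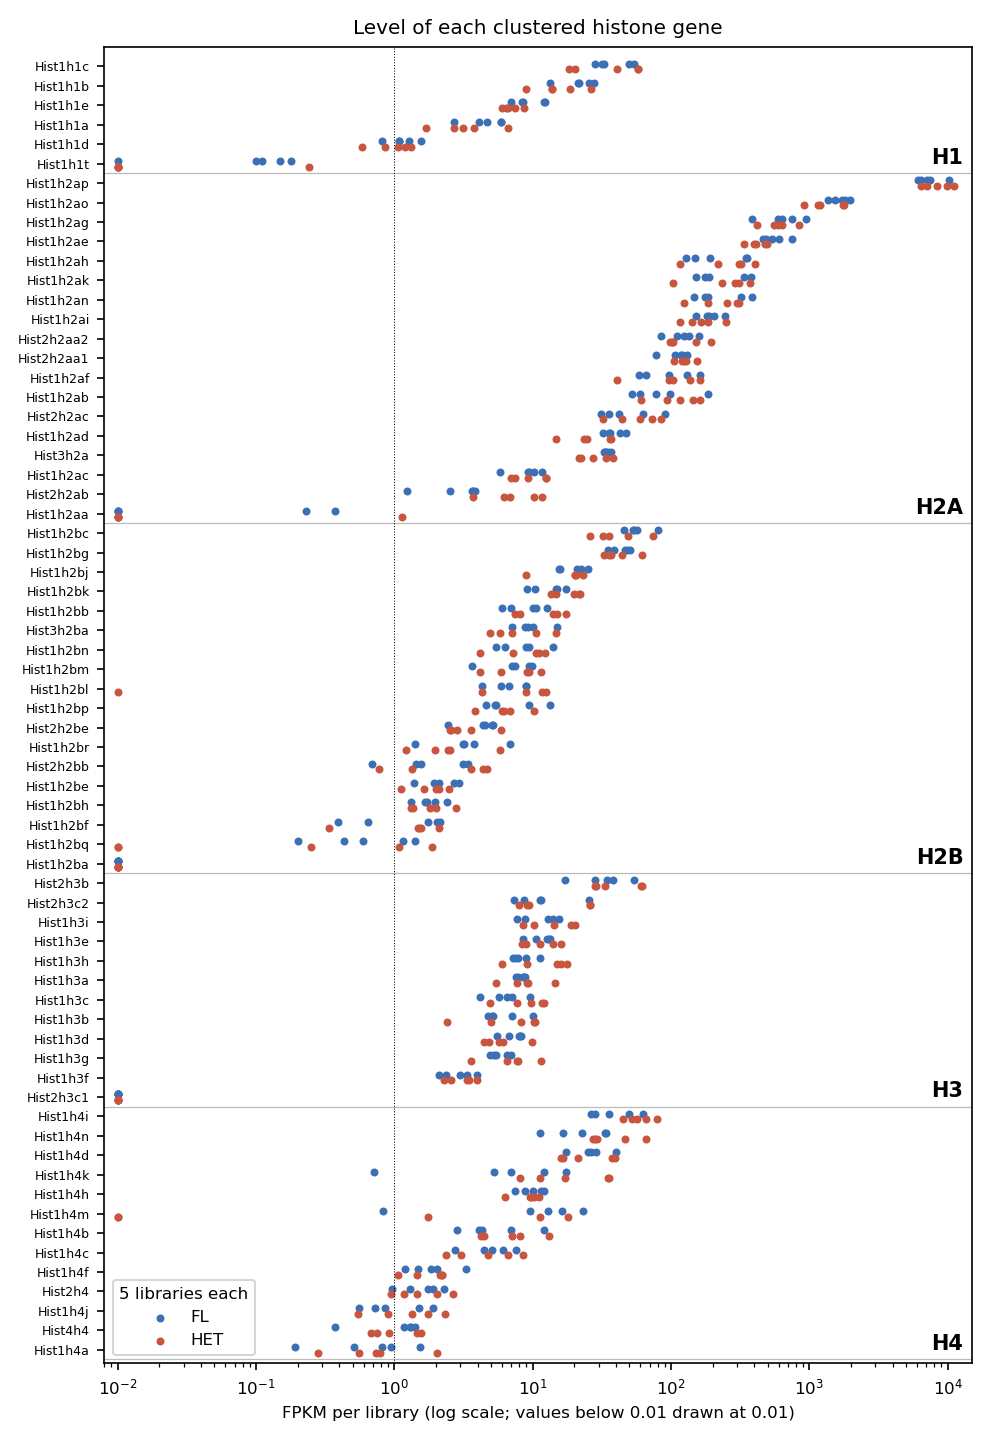
FPKM of each of the 67 clustered histone genes on a log scale, 1 point per library, FL in blue and HET in red, ordered by mean level within each class; values below 0.01 are drawn at 0.01. The H2A genes reach the highest levels, with Hist1h2ap between 6101 and 11028 FPKM, and the FL and HET points of every member overlap.

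Below that pair the members covered a wide range. Of the 18 H2A genes, 12 had a mean over all libraries of at least 100 FPKM, and no gene of another class reached that level. Hist1h2ag had a mean of 634 FPKM and Hist1h2ae of 496 FPKM. The highest means of the other classes were 50.7 FPKM for the H2B gene Hist1h2bc, 50.0 FPKM for the H4 gene Hist1h4i, 39.1 FPKM for the H1 gene Hist1h1c and 38.5 FPKM for the H3 gene Hist2h3b. Class medians of the mean level were 123 FPKM in H2A, 8.35 in H3, 7.18 in H2B, 6.76 in H4 and 6.23 in H1. A set of 6 members stayed below the filter for testing, which required 5 of the 10 libraries to reach an FPKM of 1. They were Hist1h1t, Hist1h2aa and Hist1h2ba, which are known for expression in testis, and Hist1h2bq, Hist1h4a and Hist2h3c1. Hist1h2ba and Hist2h3c1 were listed at 0 in all libraries, and Hist2h3c1 shares its whole coding sequence with Hist2h3c2, which had a mean of 14.3 FPKM.

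Near-identical copies limit what single values mean. Identical annotated coding sequences also occurred for Hist2h2aa1 with Hist2h2aa2, Hist1h2bq with Hist1h2br, and Hist1h4m with Hist1h4n. A copy within 10 base differences of equal length existed for 13 of 18 H2A, 13 of 18 H2B, 12 of 12 H3, 9 of 13 H4 and 0 of 6 H1 genes. Class sums are less exposed than single genes to how reads were split between copies. If shared reads were left out instead, class sums would miss them too, and not equally, as the classes differ in near-identical copies. Which of these applies was not tested.

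The run of A before the stem-loop was longest in the most abundant members. In the 30 bases before the stem-loop the longest uninterrupted run of A was 12 bases in Hist1h2ap and in Hist1h2ao, 8 in Hist1h2ae and 7 in Hist1h3c. In the other 40 members with a stem-loop it was 2 to 5 bases. All 10 H2B members with a stem-loop had a run of 3. Hist1h2ag was abundant with a run of only 3 bases, and Hist1h3c had a mean of 7.92 FPKM with a run of 7, so the order of levels did not follow the run gene by gene. Over the 44 members Spearman's rho between run length and mean level was 0.411, without Hist1h2ap and Hist1h2ao it was 0.311 over 42, within H2A without both it was 0.372 over 9, and outside H2A it was 0.031 over 33. These values describe genes measured in the same 10 libraries that share class and sequence ancestry, and genes are not independent replicates. The primer of the reverse transcription was not given in the sources used here, and its part in these levels was not tested.

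**Figure D2:**
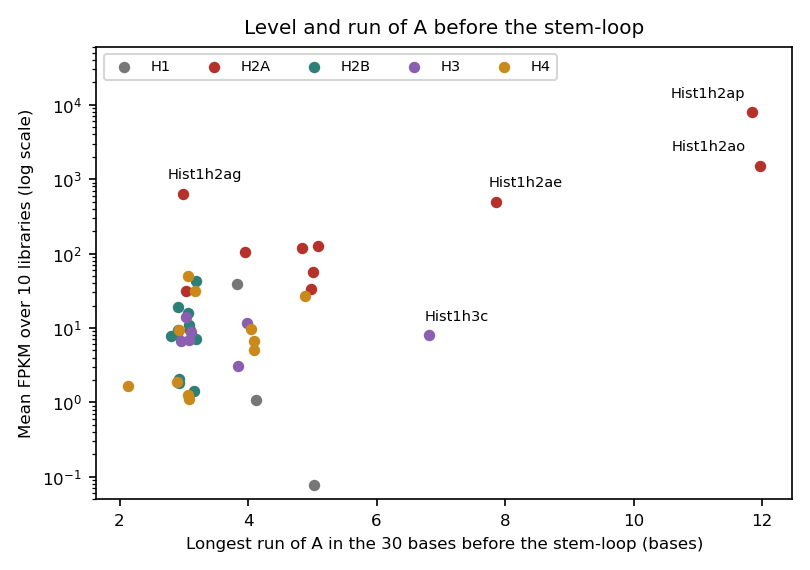
Mean FPKM over all 10 libraries (log scale) against the longest run of A in the 30 bases before the stem-loop, 1 point per member with a stem-loop match, coloured by class; points are shifted slightly sideways so that they do not hide each other, and Hist2h3c1, listed at 0, is not drawn. Hist1h2ap and Hist1h2ao stand at 12 bases with means of 7997 and 1522 FPKM, Hist1h2ae at 8 bases, and most other members at 3 to 5 bases.

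Annotated transcripts differed in how far they ran past the stem-loop. They ended within 100 bases of it in 22 members and ran on further in another 22, by up to 4884 bases in Hist1h1d, a distance chosen after the values were seen. Where a gene had several annotated transcripts with a match, that with the stem-loop nearest its start was used, and then the shortest. A gene with a short and a long form could thus count as ending at the stem-loop. Hist1h2bp, with a transcript of 469 bases, spans 21787461 to 21789213. In human cells, transcripts of some clustered histone genes that run past the stem-loop are known to receive poly(A) tails. The median of the members' mean levels was 13.4 FPKM where the transcript ended at the stem-loop, 7.55 FPKM where it ran on and 8.98 FPKM where there was no match. A longer annotated end adds to the length by which FPKM divide, so these medians are not free of annotated length. The part of length in them was not tested.

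H2A and H2B genes lie in pairs that are read in opposite directions from a shared promoter region. A search for 5′ ends up to 600 bases apart found 12 such head-to-head pairs, 175 to 305 bases apart, which took in 12 H2A and 12 H2B members. In 10 of the 11 pairs with a ratio, the H2A gene was higher in all 10 libraries. The ratio of H2A to H2B means ran from 11.5 for Hist1h2ae and Hist1h2bg to 2480 for Hist1h2ap and Hist1h2br, and the median of all 11 was 25.4. Hist1h2ap and Hist1h2br each share their coding sequence with another member, so the highest ratio also depends on how shared reads were assigned. The gene Hist1h2br spans 21833743 to 21837530, whereas its transcript used here is 381 bases long. The exception was Hist1h2ac with Hist1h2bc, where the H2B gene was higher in all 10 libraries and the ratio was 0.187, or 0.126 to 0.479 by library. Hist1h2ac had a mean of 9.49 FPKM, and among the H2A genes only Hist2h2ab and Hist1h2aa were lower. Its annotated transcript was 2482 bases long, of which 2010 lay past the stem-loop, and that of Hist1h2bc was 1156 bases long. FPKM divide by length, and the part of annotated length in the order of this pair and in the other ratios was not tested. The pair Hist1h2aa and Hist1h2ba was at or near 0 and gave no ratio.

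**Figure D3:**
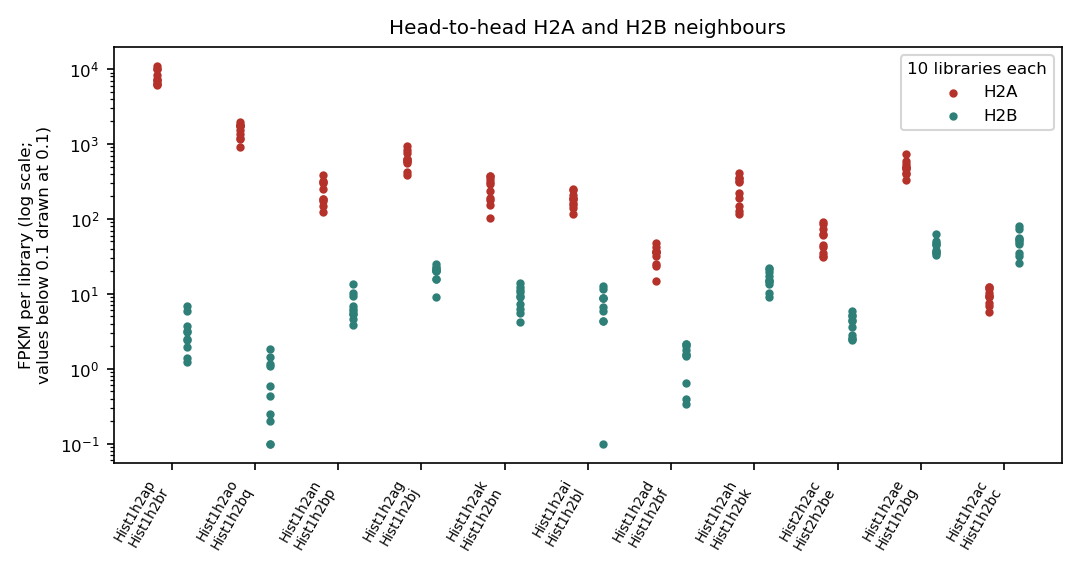
FPKM on a log scale of the H2A gene (red) and the H2B gene (green) of each of 11 head-to-head pairs, 10 points per gene for the 10 libraries, with values below 0.1 drawn at 0.1. The H2A points lie above the H2B points in every pair except Hist1h2ac and Hist1h2bc.

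Promoter windows are shown for the most abundant member and for the pair with the reversed order. Of the 67 members, 61 matched an entry in RefSeq's promoters (GRCm38.p6). In the 250 bases upstream of each start and on either strand, CCAAT, the letters of the CCAAT box, was present in 50 of 61 members (82.0%) against 33.8% of all 32851 promoters. TATAAA was present in 28 of 61 (45.9%) against 12.4%, and ATTTGCAT, the octamer motif, in 13 of 61 (21.3%) against 1.60%. No motif contains another, and windows of a head-to-head pair overlap, so their matches are not separate. The octamer was found in 7 of 18 H2A and 6 of 16 H2B promoters and in none of the 5 H1, 10 H3 and 12 H4 promoters. CCAAT was found in all H1, H2A and H2B promoters, in 8 of 10 H3 and in 3 of 12 H4 promoters. The 150 bases before each start are given with these letters in capitals, on the strand of the gene.
Hist1h2ap, chr13:21833476-21833625, minus strand: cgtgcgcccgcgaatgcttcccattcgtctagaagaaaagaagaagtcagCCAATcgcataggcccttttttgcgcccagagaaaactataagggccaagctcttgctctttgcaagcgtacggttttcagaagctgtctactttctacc
Hist1h2ac, chr13:23683960-23684109, minus strand: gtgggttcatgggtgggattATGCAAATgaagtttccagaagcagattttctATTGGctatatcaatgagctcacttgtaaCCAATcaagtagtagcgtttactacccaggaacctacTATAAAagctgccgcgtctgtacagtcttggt
The Hist1h2ac window, which lies between Hist1h2ac and Hist1h2bc, holds the octamer on the other strand, CCAAT on both strands and TATAAA. The Hist1h2ap window holds CCAAT once and neither of the other motifs. These are matches of letters and not measured sites.

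Several facts of the libraries bear on the comparison of HET with FL. Nup214 held 65.8, 55.3, 52.2, 43.9 and 30 FPKM in FL 1 to 5 and 31.2, 9.74, 17.4, 16.3 and 9.13 FPKM in HET 1 to 5, so FL 5 and HET 1 crossed between the groups. Its log2 fold change of -1.59 (SE 0.31) had a limma adjusted p of 0.472. Summed FPKM ran from 896054 to 1066190 per library, and HET 3 was the shallowest by the smallest step between its values. Columns differed in scale, with median-ratio size factors from 0.821 to 1.29. The median log2 fold change of all 13041 tested genes was -0.17, and scaling by these factors moved it to 0.01. Of the gate's genes, Kit averaged 145 FPKM in FL and 154 in HET, Slamf1 (CD150) 3.81 and 3.97 FPKM, and Ly6a (Sca-1) 56.5 ± 10.9 and 95.8 ± 54.7 FPKM (SD, n = 5), with HET 5 at 179 FPKM. Among stem cell genes outside the gate, Procr averaged 3.45 and 4.06 FPKM, Mecom 7.67 and 6.19 FPKM, and Hlf 17.7 and 13.2 FPKM. Cd48, whose protein the sort selected against, averaged 85.1 and 84.7 FPKM. Markers of other cells were present in every library. A list of 10 plasma and B cell genes summed to between 2704 and 11012 FPKM in FL and between 8156 and 102140 FPKM in HET, highest in HET 3 and HET 5. A list of 12 neutrophil genes summed to 9723 to 14192 FPKM in FL and 10649 to 17555 FPKM in HET, with all 12 fold changes above 0. A list of 10 erythroid genes summed to 2433 to 3338 FPKM in FL and 1554 to 4416 FPKM in HET, with all 10 fold changes below 0, of which 3 turned above 0 with median-ratio scaling. No gene of these lists was at 0 in all libraries, and the part of such cells in the histone values was not tested.

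No clustered histone gene passed the test between HET and FL. In bulk RNA a smaller number of cells of a kind and less RNA per cell cannot be told apart, and the same holds for a change in the share of cycling cells. The test was limma on log2(FPKM + 1) over all 13041 tested genes with Benjamini-Hochberg adjustment, and its fold changes understate those of low genes. Of the 61 tested members, 0 had an adjusted p under 0.05, where the background was 0% of all genes, and the smallest adjusted p among members was 0.472. An unadjusted limma p under 0.05 was found for 7 members, or 11.5%, against a background of 10.4%. Of these, 4 were higher in HET (background 1.44%) and 3 lower (background 8.95%). The groups were free of overlap in 0 members, against 0.506% of all genes. Fold changes above 0 were found in 31 of 61 members (50.8%), against 22.7% of all genes, and after median-ratio scaling in 44 of 61 (72.1%), against 51.0%. The median log2 fold change of the members was 0.01, or 0.17 with that scaling.

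**Figure D4:**
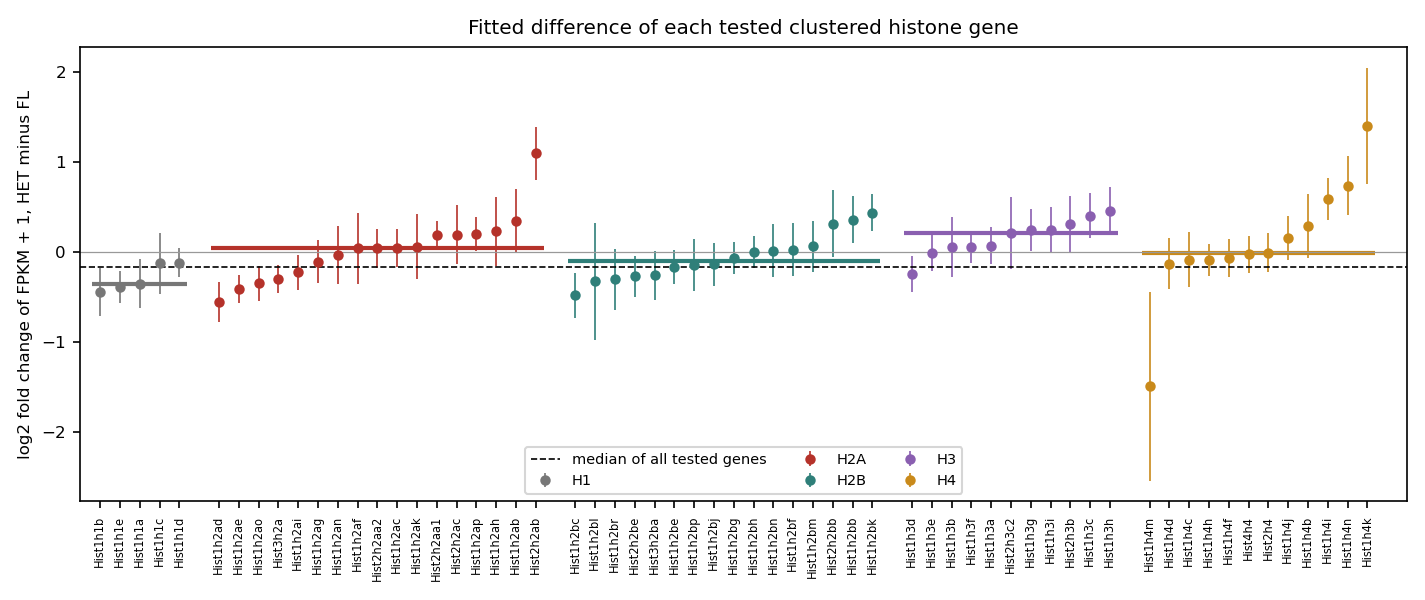
Log2 fold change of FPKM + 1, HET minus FL, of each tested clustered histone gene, with bars of 1 standard error from the limma fit, coloured by class; thick lines are class medians and the dashed line is the median of all tested genes at -0.17. H1 members lie below 0, most H3 members lie above it, and Hist1h4k, Hist2h2ab and Hist1h4m lie farthest from 0.

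The linker histone class was lower on average in HET. The 6 H1 genes summed to 74.6, 62.6, 95.0, 72.3 and 79.1 FPKM in FL 1 to 5 and to 99.3, 82.0, 43.8, 49.9 and 59.7 FPKM in HET 1 to 5. HET 1 and HET 2 lay above most FL libraries and HET 3, 4 and 5 lay below all of them. The means were 76.7 ± 11.8 and 66.9 ± 23.2 FPKM (SD, n = 5), a ratio of 0.872. All 5 tested H1 genes had a fold change below 0, with a median of -0.35. Of all 13041 tested genes, 10082 were also below 0, with a median of -0.17. With median-ratio scaling 1 was above 0 and 4 below, with a median of -0.19. Hist1h1e, which encodes H1.4, held 8.31, 6.97, 12.3, 12.1 and 8.55 FPKM in FL 1 to 5 and 7.45, 5.96, 6.62, 8.66 and 6.46 FPKM in HET 1 to 5. Only HET 4 lay above the FL median, and the log2 fold change was -0.39 (SE 0.18, limma adjusted p = 0.472). Hist1h1b, which encodes H1.5, averaged 21.9 ± 5.47 FPKM in FL and 16.4 ± 6.65 FPKM in HET (SD, n = 5), with a log2 fold change of -0.44 (limma adjusted p = 0.495). Hist1h1a, which encodes H1.1, averaged 4.64 ± 1.34 and 3.59 ± 1.86 FPKM, with a log2 fold change of -0.35. Hist1h1c, which encodes H1.2, was the most abundant and averaged 39.3 ± 11.7 and 38.9 ± 19.2 FPKM, and its fold change turned from -0.12 to 0.07 with median-ratio scaling.

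The H2A class sum averaged 11833 ± 2401 FPKM in FL and 12510 ± 2883 FPKM in HET (SD, n = 5 each), a ratio of 1.06, and without Hist1h2ap and Hist1h2ao it averaged 2720 ± 763 and 2585 ± 597 FPKM. Of the 17 tested genes, 10 had a fold change above 0 and 7 below, with a median of 0.05, and with median-ratio scaling 12 were above and 5 below, with a median of 0.24. Hist2h2ab had the smallest limma p of all members. It held 3.70, 1.24, 3.66, 2.54 and 3.81 FPKM in FL 1 to 5 and 3.71, 11.7, 10.2, 6.19 and 6.83 FPKM in HET 1 to 5. All HET libraries lay above the FL median, and HET 1 overlapped with FL 5. The means were 2.99 ± 1.11 and 7.72 ± 3.204 FPKM (SD, n = 5), with a log2 fold change of 1.10 (SE 0.29) and a limma adjusted p of 0.472. Hist2h2ab (chromosome 3, 96219865 to 96220308) lies tail to tail with Hist2h2ac, 52 bases away by their annotated ends. Hist2h2ac is the more abundant, with a mean of 55.8 FPKM against 5.36 FPKM. No strand marking is named in the labels, so reads of one that run past its end cannot be told from reads of the other. Hist2h2ac averaged 52.6 ± 24.8 FPKM in FL and 59.0 ± 21.01 FPKM in HET (SD, n = 5), with a log2 fold change of 0.20.

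Several abundant H2A genes pointed in different directions. Hist1h2ae held 464, 488, 599, 746 and 537 FPKM in FL 1 to 5 and 412, 498, 401, 478 and 335 FPKM in HET 1 to 5. None of the HET libraries reached the FL median of 537 FPKM, with an overlap of HET 2 and HET 4 with FL 1 and FL 2. Its log2 fold change was -0.41 (SE 0.15, limma adjusted p = 0.472). Hist1h2ap had a log2 fold change of 0.20 (SE 0.19) and Hist1h2ao of -0.34 (SE 0.19), so the members with identical coding sequences differed in sign. Hist1h2ag averaged 662 ± 210 and 606 ± 152 FPKM (SD, n = 5), with a log2 fold change of -0.10 that became 0.10 with median-ratio scaling. Hist1h2ad, named after its value was seen, averaged 38.9 ± 6.12 FPKM in FL and 27.3 ± 9.34 FPKM in HET (SD, n = 5), with a log2 fold change of -0.55 (limma adjusted p = 0.472).

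The H2B class held 187, 198, 241, 221 and 160 FPKM in FL 1 to 5 and 270, 203, 149, 192 and 137 FPKM in HET 1 to 5. HET 1 was the highest library and HET 5 the lowest, so HET spanned the whole FL range. Of the 16 tested H2B genes, 7 had a fold change above 0 and 9 below, with a median of -0.10. Median-ratio scaling turned this to 10 above and 6 below, with a median of 0.09. Hist1h2bc averaged 57.9 ± 13.1 FPKM in FL and 43.5 ± 19.3 FPKM in HET (SD, n = 5), with a log2 fold change of -0.48 (limma adjusted p = 0.473). Its values in HET ran from 25.9 FPKM in HET 3 to 74.5 FPKM in HET 1. Hist1h2bk was higher on average in HET, with 14.7, 10.4, 15.1, 17.5 and 9.15 FPKM in FL 1 to 5 and 19.8, 21.6, 14.8, 22.1 and 13.6 FPKM in HET 1 to 5. In 4 of 5 HET libraries it lay above the FL median, and its log2 fold change was 0.44 (SE 0.20, limma adjusted p = 0.472). Hist1h2bg averaged 43.6 ± 6.65 and 42.4 ± 11.8 FPKM (SD, n = 5), and Hist1h2bj 19.96 ± 4.19 and 18.6 ± 5.53 FPKM (SD, n = 5). The fold changes of Hist1h2bg and Hist1h2bj, -0.07 and -0.13, turned to 0.13 and 0.06 with median-ratio scaling. In the 10 head-to-head pairs with both genes tested, the fold changes had the same sign in 6.

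**Figure D5:**
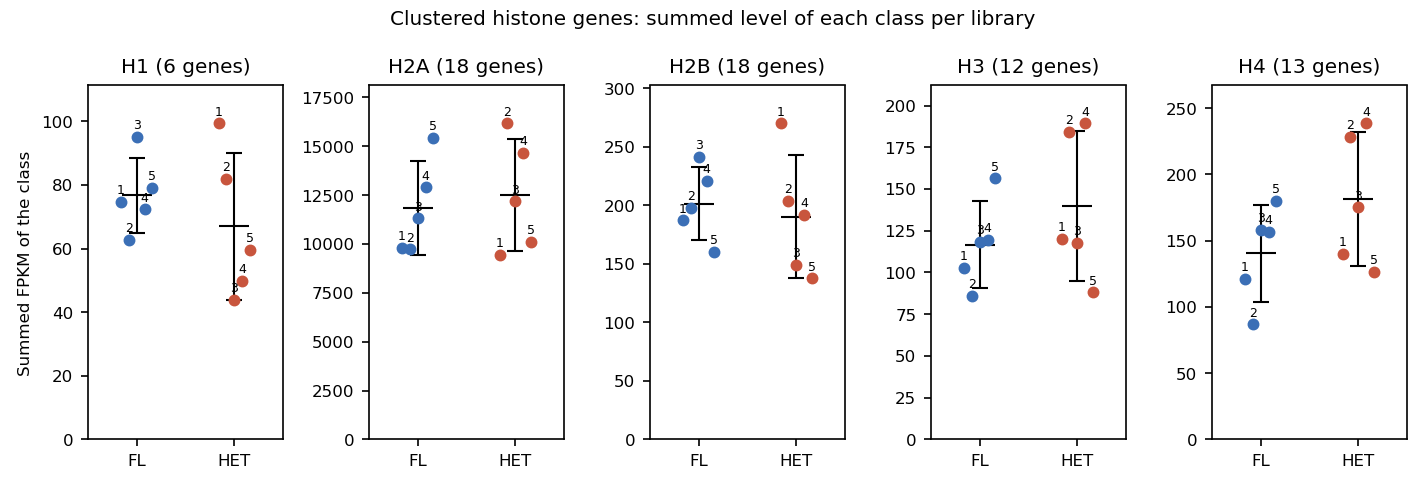
Summed FPKM of each histone class in each library, FL in blue and HET in red, labelled by replicate number, with the mean and SD of 5 libraries in black and every axis starting at 0. FL and HET overlap in all 5 classes, and HET 2 and HET 4 are the highest libraries in H4 while HET 1 is the highest in H1 and H2B.

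The H3 class summed to 103, 86.0, 118, 120 and 156 FPKM in FL 1 to 5 and to 120, 184, 118, 189 and 88.1 FPKM in HET 1 to 5. HET 2 and HET 4 exceeded all FL libraries and HET 5 lay near the lowest. The means were 117 ± 26.0 and 140 ± 44.7 FPKM (SD, n = 5), a ratio of 1.20. Of the 11 tested H3 genes, 9 had a fold change above 0 and 2 below, with a median of 0.21, and none had an unadjusted limma p under 0.05. With median-ratio scaling 10 were above and 1 below, with a median of 0.40. The unscaled H3 median fell to 0.03 without HET 4 and to 0.06 without HET 2, and it was 0.35 without HET 5. Hist2h3b, which encodes H3.2, held 28.4, 17.0, 34.8, 37.8 and 53.7 FPKM in FL 1 to 5 and 28.4, 61.1, 33.2, 62.2 and 28.8 FPKM in HET 1 to 5, again highest in HET 2 and HET 4. Hist2h3c2, which also encodes H3.2, averaged 12.9 ± 7.27 and 15.7 ± 9.39 FPKM (SD, n = 5). Hist1h3h, which encodes H3.1, averaged 8.54 ± 1.66 and 12.8 ± 5.01 FPKM (SD, n = 5), with a log2 fold change of 0.46 (limma adjusted p = 0.483). Hist1h3c, an H3.2 gene, averaged 6.62 ± 1.99 and 9.23 ± 2.98 FPKM (SD, n = 5), with a log2 fold change of 0.41 (limma adjusted p = 0.498). Hist1h3i averaged 11.8 ± 3.37 and 14.5 ± 5.17 FPKM, and Hist1h3e averaged 11.6 ± 2.08 and 11.7 ± 3.27 FPKM (SD, n = 5). Hist1h3e's log2 fold change of -0.01 turned to 0.18 with median-ratio scaling.

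The H4 class had the highest ratio of class sums. Its 13 genes summed to 121, 86.8, 158, 157 and 180 FPKM in FL 1 to 5 and to 140, 228, 175, 239 and 126 FPKM in HET 1 to 5. HET 2 and HET 4 lay above all FL libraries, and the other HET libraries lay within the FL range. The means were 141 ± 36.7 and 182 ± 50.6 FPKM (SD, n = 5), a ratio of 1.29. The median fold change over the 12 tested genes was -0.01 with 5 above 0 and 7 below, so the sum and the median differed in sign. With median-ratio scaling 11 were above 0 and 1 below, with a median of 0.10. The sum was led by Hist1h4i, Hist1h4n, Hist1h4d and Hist1h4k, the H4 genes with the highest means. Hist1h4i held 28.2, 26.5, 49.4, 35.7 and 62.8 FPKM in FL 1 to 5 and 44.6, 78.8, 56.4, 65.6 and 52.2 FPKM in HET 1 to 5. All HET libraries lay above the FL median, and FL 3 and FL 5 lay within the HET range, with a log2 fold change of 0.59 (SE 0.24, limma adjusted p = 0.472). Hist1h4k held 7.01, 0.71, 5.26, 17.4 and 12.0 FPKM in FL 1 to 5 and 8.14, 35.2, 17.1, 35.5 and 11.3 FPKM in HET 1 to 5. It had the largest fold change above 0 of the tested members, at 1.40 (SE 0.65) on the log2 scale, with a limma adjusted p of 0.472. Its mean in HET rested mainly on HET 2 and HET 4.

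Hist1h4n and Hist1h4m are identical in coding sequence and were split differently between libraries. Hist1h4n averaged 23.5 ± 9.94 FPKM in FL and 39.5 ± 17.1 FPKM in HET (SD, n = 5), with a log2 fold change of 0.74. Hist1h4m, named after its values were seen, held 0.83, 9.51, 23.3, 12.9 and 16.2 FPKM in FL 1 to 5 and 11.3, 18.1, 1.74, 0 and 0 FPKM in HET 1 to 5, with a log2 fold change of -1.49 (SE 1.04). HET 4, in which Hist1h4m was listed at 0, had the highest value of Hist1h4n, at 66.5 FPKM. Their sum was 36.1 ± 10.5 FPKM in FL and 45.7 ± 13.9 FPKM in HET (SD, n = 5), a ratio of 1.27. Hist1h4d averaged 27.7 ± 8.30 and 26.2 ± 11.4 FPKM (SD, n = 5), and its log2 fold change of -0.13 turned to 0.07 with median-ratio scaling.

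Single libraries stood out across many members. Among the 61 tested members, HET 4 held the highest value for 14, HET 2 for 11 and HET 1 for 10. HET 5 held the lowest value for 16 members and the highest for none. In the H3 class HET 4 was the highest library for 6 of 11 tested genes. Sums over 28 S phase genes, a list of replication factors and enzymes of nucleotide synthesis, were 2192 to 2541 FPKM in FL and 2016 to 2912 FPKM in HET, with HET 2 at 2912 and HET 4 at 2716 the highest and HET 5 the lowest. These same libraries were highest and lowest in H3 and H4 among the HET libraries, and the part of S phase in those sums was not tested.

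Calls among the members depended on how the libraries were weighted. With limma's sample quality weights 17 of 61 members had an adjusted p under 0.05 (27.9%), against a background of 52.7% of all genes. Of these, 8 were higher in HET (13.1%, background 4.87%) and 9 lower (14.8%, background 47.8%). The higher members were Hist1h2ap, Hist1h2ab, Hist2h2ac, Hist2h2ab, Hist1h3h, Hist1h3c, Hist1h4i and Hist1h4k, so they came from H2A, H3 and H4. The lower members were Hist1h1a, Hist1h1b, Hist1h1e, Hist1h2ad, Hist3h2a, Hist1h2bc, Hist2h2be, Hist1h2br and Hist1h3d. Without FL 5 and HET 1, the libraries that crossed in Nup214, 11 members passed (4 higher and 7 lower), against a background of 45.7%, of which 3.44% were higher and 42.2% lower. Hist2h2ab passed in both settings. Its log2 fold change was 1.26 (limma adjusted p = 0.00196) with weights and 1.38 (limma adjusted p = 0.00311) without FL 5 and HET 1. FL 5 held its highest FL value and HET 1 its lowest HET value, at 3.81 and 3.71 FPKM. Leaving both out removes the overlap of the groups, so the second p is not separate support. Without FL 5 alone, 0 members passed against 3.14% of all genes, or 409 genes.

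Fold changes of both signs occurred with each kind of 3′ end. Members whose transcript ended at the stem-loop had 14 fold changes above 0 and 8 below, with a median of 0.06, and 19 above and 3 below with median-ratio scaling, with a median of 0.25. Tested members whose transcript ran on had 6 above and 14 below, with a median of -0.07, but scaling turned this to 13 above and 7 below, with a median of 0.08. Those without a match had 11 above and 8 below, with a median of 0.04, and 12 above and 7 below with scaling, with a median of 0.24. Over all genes 22.7% of fold changes were above 0, or 51.0% with scaling. Summed without Hist1h2ap and Hist1h2ao, members ending at the stem-loop held 1218 ± 314 FPKM in FL and 1219 ± 243 FPKM in HET (SD, n = 5). Members that ran on held 831 ± 131 and 696 ± 107 FPKM (SD, n = 5), with overlap between the groups.

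Histone genes outside the clusters were abundant in the same libraries. H2afz, which encodes H2A.Z, averaged 2333 ± 245 FPKM in FL and 2357 ± 432 FPKM in HET (SD, n = 5). H3f3a and H3f3b, which both encode H3.3, summed to 2737 ± 315 and 2741 ± 392 FPKM (SD, n = 5), above the sum of all 12 clustered H3 genes in every library. H3f3a alone had a log2 fold change of 0.33 and H3f3b of -0.20, which turned to 0.01 with median-ratio scaling. H2afx, which encodes H2A.X, averaged 401 ± 37.4 and 341 ± 76.8 FPKM (SD, n = 5). H2afy, which encodes macroH2A1, averaged 347 ± 98.2 and 217 ± 94.9 FPKM (SD, n = 5), with a log2 fold change of -0.70 (limma adjusted p = 0.472). Cenpa, the centromeric H3 variant, averaged 182 ± 21.3 and 147 ± 35.9 FPKM (SD, n = 5). Of the 11 variant genes listed, 10 were tested, of which 3 had a fold change above 0 and 7 below, with a median of -0.13. Median-ratio scaling turned this to 6 above and 4 below, with a median of 0.04. Under limma 0 passed, or 3 of the 10 with sample quality weights, against 52.7% of all genes with those weights. Without FL 5 and HET 1, 3 of the 10 passed, against 45.7% of all genes. With equal weights for all libraries, 1 of the 10 had an unadjusted limma p under 0.05, against 10.4% of all genes.

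The factors that make and handle histone mRNAs gave 0 calls with equal weights for all libraries, 9 of 16 with sample quality weights (56.2%, against 52.7% of all genes) and 8 without FL 5 and HET 1 (against 45.7% of all genes). Of 18 listed factors of histone gene transcription, mRNA processing and decay, 17 were found by symbol. The entry written Symplk matched no gene symbol and was not examined, and Zfp473 was below the filter. The 16 tested had 2 fold changes above 0, 14 below and a median of -0.18, close to that of all genes. With median-ratio scaling 8 were above 0 and 8 below, with a median of -0.02. Without scaling 2 (12.5%) had an unadjusted limma p under 0.05, against 10.4% of all genes. Slbp, which encodes the stem-loop binding protein, averaged 135 ± 10.7 and 134 ± 17.9 FPKM (SD, n = 5), with a log2 fold change of -0.01 that turned to 0.19 with median-ratio scaling. Npat, the co-activator of histone gene transcription, averaged 7.34 ± 0.94 and 6.81 ± 1.29 FPKM (SD, n = 5). Upf1, a helicase needed for histone mRNA decay, held 5.27, 4.69, 3.71, 2.66 and 1.77 FPKM in FL 1 to 5 and 2.39, 1.07, 1.28, 1.28 and 0.97 FPKM in HET 1 to 5. HET 1 alone lay within the FL range, and the log2 fold change was -0.91 (SE 0.24, limma adjusted p = 0.472). Without FL 5, the limma adjusted p was 0.0262 for Upf1 and 0.0465 for Srrt, where 3.14% of all genes passed. FL 5 was the lowest FL library for Upf1 and Srrt, at 1.77 and 55.5 FPKM. Leaving it out raises the FL mean, so these p-values are not separate support. Srrt, a partner of the cap-binding complex, averaged 91.8 ± 20.7 and 63.5 ± 17.1 FPKM (SD, n = 5), and Cpsf2, a subunit of the 3′ end cleavage complex, averaged 23.9 ± 3.07 and 19.5 ± 4.01 FPKM (SD, n = 5).

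All 21 histone chaperones and importers listed were tested, with 4 fold changes above 0, 17 below, and a median of -0.09. Median-ratio scaling turned this to 15 above and 6 below, with a median of 0.10. Under limma 0 passed, or 8 with sample quality weights (38.1%, against 52.7% of all genes). Leaving out FL 5 and HET 1 gave 7 of 21, against 45.7% of all genes. An unadjusted limma p under 0.05 was found for 3 (14.3%), against 10.4% of all genes. Kpnb1, which encodes importin beta 1, averaged 31.6 ± 7.47 and 17.6 ± 8.32 FPKM (SD, n = 5), with a log2 fold change of -0.86 (limma adjusted p = 0.472). The FACT subunits Supt16 and Ssrp1 averaged 33.2 ± 5.71 and 24.4 ± 5.54 FPKM, and 230 ± 70.4 and 142 ± 51.7 FPKM (SD, n = 5), respectively. Without FL 5, the limma adjusted p was 0.0403 for Kpnb1 and 0.0370 for Ssrp1, where 3.14% of all genes passed. FL 5 was the lowest FL library for Kpnb1 and Ssrp1, at 18.4 and 113 FPKM. Leaving it out raises the FL mean, so these p-values are not separate support. All 28 S phase genes were tested, with 10 fold changes above 0, 18 below and a median of -0.03. Median-ratio scaling turned this to 23 above and 5 below, with a median of 0.16. Without scaling 1 (3.57%) had an unadjusted limma p under 0.05, against 10.4% of all genes. Pcna, the sliding clamp of DNA polymerase, averaged 198 ± 55.9 and 243 ± 57.2 FPKM (SD, n = 5). Mcm4, a subunit of the replicative helicase, averaged 53.6 ± 8.19 and 64.1 ± 9.93 FPKM, whereas Gins2, another helicase component, averaged 27.9 ± 4.76 and 21.8 ± 3.54 FPKM (SD, n = 5). Tyms, which makes thymidylate, averaged 109 ± 15.9 and 90.9 ± 13.2 FPKM (SD, n = 5). With equal weights for all libraries, limma called 0 of the 28, but it called 11 with sample quality weights and 9 without FL 5 and HET 1. The 11 are 39.3% of the list, against 52.7% of all genes with those weights. Without FL 5 and HET 1, 45.7% of all genes passed. Pcna and Mcm4, higher in HET, and Gins2 and Tyms, lower in HET, were among those called in both settings.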

How the data were processed

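RNA-seq values of 10 libraries were used, 5 FL and 5 HET, grouped by the labels. The authors deposited FPKM per Ensembl gene. Per the labels' protocols, total RNA was extracted with a miRNeasy kit, mRNA was reverse-transcribed and amplified by Geo-seq, and libraries were made with a TruePrep V2 kit. No molecular identifiers are named, so amplification duplicates are not removed by them. Per the submitters' processing notes the genome was mm10 and Cufflinks 2.1.1, Bowtie 0.12.9, DESeq2 and HTSeq were used, in roles that are not stated. How reads of near-identical genes were assigned was not given in the sources used here. Read totals were not used here, so counting error is unknown.

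All 52096 identifiers matched GENCODE M21. Genes whose FPKM reached 1 in 5 or more libraries were fitted with limma 3.58.1 in R 4.3.3 (intensity trend, robust shrinkage, genotype as the only term) on log2(FPKM + 1), with Benjamini-Hochberg adjustment at 0.05 over all 13041. The code was tested on simulated data. Class sums and lists are described without a test. Stem-loops were searched in GENCODE M21 transcripts and promoters were taken from RefSeq. Python 3.11.15 with pandas 2.3.3 was used for tables, and matplotlib 3.10.9 for plots.

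The members and lists were chosen with earlier results of these data known. Named by rule were Nup214, the 4 members of highest mean and the 2 of smallest p per class, Hist2h2ab, the 3 genes of smallest p per comparison list, a fixed set of variant, processing and gate genes, and no others unless said. Members named for a pair, a stem-loop or a count were chosen after their values were seen. Alternatives covered the pseudocount, filters, scaling, gene types, weights, a replicate block and left-out libraries. Deviations of same-numbered libraries correlated between -0.172 and 0.23, and those of libraries with different numbers between -0.433 and 0.245. So few correlations cannot decide whether replicate numbers pair the libraries. No 2 libraries were duplicates, with at most 0.767% of tested values identical.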

Additional observations from a re-analysis of the deposited data

Results flagged for a closer look

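In groups of 5 libraries, a lowest or highest value was set apart from the others by Dixon's 95% criterion (0.71) in 10 of 102 groups examined over the named genes and sums, and chance gives about 1 in 20. Among the clustered histone genes, Hist1h2bj was low in HET 5 at 8.98 FPKM, and Hist2h3c2 was high in FL 5 at 25.5 FPKM. In FL 5, Srrt was low at 55.5 FPKM, Kpnb1 at 18.4 FPKM and Supt16 at 23.1 FPKM, and H3f3a was high at 1532 FPKM. In HET 1, H2afy was high at 384 FPKM, Upf1 at 2.39 FPKM, Kpnb1 at 32.2 FPKM and Ssrp1 at 231 FPKM. Of the 10 values, 9 were in FL 5 or HET 1, the libraries that crossed between the groups in Nup214.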

How the results depend on the processing

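The pseudocount of 0.1, both other filters, the protein-coding subset and the replicate block changed no call. With the replicate block 0 genes and 0 clustered histone genes passed. In the check of pairing, 5 of the 10 libraries correlated best with their own number, and pairing was therefore neither shown nor excluded. Over all 13041 genes, 1 passed with median-ratio scaling, 6869 with sample quality weights and 5954 without FL 5 and HET 1, and 0 to 409 when 1 library was left out, the highest without FL 5 and 1 each without HET 1, HET 2 or HET 5. Among the members 17 passed with weights and 11 without FL 5 and HET 1, and 0 in every fit that left out 1 library. The cause was not tested. With median-ratio scaling the S phase median moved to 0.163.

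Some log2 fold changes of named genes changed sign. With median-ratio scaling they became 0.07 for Hist1h1c, 0.099 for Hist1h2ag, 0.13 for Hist1h2bg, 0.055 for Hist1h2bj, 0.177 for Hist1h3e, 0.069 for Hist1h4d, 0.006 for H3f3b, 0.186 for Slbp, 0.072 for Npat and 0.158 for Cd48. With weights they became 0.13 for Hist1h2ag, 0.27 for Hist1h4d, 0.028 for Slbp, -0.208 for Slamf1, -0.135 for Kit and -0.244 for Procr. Without FL 5 and HET 1 they became 0.161 for Hist1h4d, -0.12 for Slamf1, -0.151 for Kit and -0.1 for Procr. With 1 library left out, the range was -0.3 to 0.1 for Hist1h1c, -0.284 to 0.045 for Hist1h2ag, -0.21 to 0.014 for Hist1h2bg, -0.224 to 0.094 for Hist1h2bj, -0.008 to 0.478 for Hist2h3c2, -0.122 to 0.095 for Hist1h3e, -0.292 to 0.019 for Hist1h4d, -0.073 to 0.089 for H2afz, -0.064 to 0.043 for Slbp, -0.049 to 0.149 for Slamf1, -0.161 to 0.098 for Cd48, -0.042 to 0.165 for Kit and -0.045 to 0.311 for Procr. The log2 difference of class sums ranged from 0.205 to 0.487 for H4, 0.106 to 0.382 for H3, -0.247 to -0.004 for H2B, -0.028 to 0.174 for H2A and -0.411 to -0.116 for H1 in those fits. The medians of the classes ranged from -0.039 to 0.101 for H4, 0.028 to 0.349 for H3, -0.185 to 0.045 for H2B, -0.111 to 0.154 for H2A and -0.419 to -0.178 for H1.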
